A study of Mus musculus with 8 samples.

Results

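The Wnt pathway of the mouse uterus was examined through 60 genes of the 24963 listed in the deposited table, chosen by symbol: 19 Wnt ligands, 14 receptors (Frizzled, Lrp5, Lrp6, Ror1 and Ror2), 10 secreted antagonists (Sfrp and Dkk families, Wif1 and Notum), 9 genes of the R-spondin branch (Rspo, Lgr4 to Lgr6, Rnf43 and Znrf3), and 8 genes that act inside the Wnt-producing or Wnt-receiving cell (Porcn, Ctnnb1, Axin1, Axin2, Lef1 and the Tcf7 family). RNA came from whole uterine tissue of C57B6/J females at gestation day 3.5, mated at 8 weeks of age according to the labels. The methods of the study give the age as a range in months that begins near this age. The males were vasectomized, so no embryo was present. All 8 mice were homozygous for a floxed Nr2f2 allele. The 4 Nr2f2 f/f mice served as controls and carried no Cre, and the 4 Nr2f2 d/d mice also carried Cre knocked into 1 Pgr allele (Pgr Cre/+; Nr2f2 f/f), which recombines Nr2f2 in Pgr-expressing cells. No Pgr Cre/+ mice without the floxed allele are among the samples, so the loss of Nr2f2 and the changed Pgr allele cannot be told apart. Each library was made from the uterus of 1 mouse, and values are FPKM, fragment numbers per gene divided by gene length and by library size.

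Wnt proteins are secreted lipid-modified ligands that bind Frizzled receptors. With the co-receptors Lrp5 or Lrp6 they stabilise beta-catenin, which then acts with TCF/LEF proteins on target genes, and with Ror receptors they drive beta-catenin-independent signalling. R-spondins, bound by Lgr4 to Lgr6, raise Wnt sensitivity by removing the ligases Rnf43 and Znrf3, which clear Frizzled receptors from the cell surface, while Sfrp, Dkk, Wif1 and Notum proteins restrain the pathway outside the cell. In the uterus, Wnt4, Wnt5a and Wnt7a are known for roles in decidualization, in patterning and gland formation, and in epithelial identity.

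The library totals recovered from the FPKM of short genes were 61500000 to 92400000 fragments. Nr2f2 itself had 25.3, 21.8, 25.7 and 23.5 FPKM in Nr2f2 f/f and 9.66, 9.42, 6.90 and 9.74 FPKM in Nr2f2 d/d (log2 fold change -1.39, SE, the standard error, 0.118, limma adjusted p = 0.00549). Among lists of cell type markers, endothelial markers summed to 352 to 478 FPKM in Nr2f2 f/f and 223 to 278 FPKM in Nr2f2 d/d, with 9 of 10 lower at an unadjusted p under 0.05. At that threshold 12.5% of all genes tested were lower and 8.66% higher. Epithelial markers summed to 880 to 922 and 1162 to 1272 FPKM, with 6 of 12 higher at the same threshold. Mesothelial markers summed to 72.7 to 101 and 92.9 to 122 FPKM, with 6 of 7 higher. Stromal markers summed to 1899 to 2196 and 2663 to 5047 FPKM, with 5 of 12 higher, 2 lower and a median log2 fold change of -0.08. Neutrophil markers summed to 2.96 to 16.5 and 17.7 to 41.0 FPKM, with 2 of 3 tested higher, and T and NK cell markers to 35.7 to 55.8 and 44.9 to 242 FPKM, with 4 of 7 tested higher. Gland markers summed to 617, 3297, 220 and 160 FPKM in Nr2f2 f/f and 49.8 to 99.0 FPKM in Nr2f2 d/d, with 2 of 8 lower. Smooth muscle markers, at 1330 to 1871 and 1072 to 2609 FPKM, and macrophage markers, at 102 to 200 and 139 to 211 FPKM, overlapped between the groups. So did lymphatic markers (10.7 to 17.7 and 13.7 to 20.4 FPKM, with Ccl21a at 0), adipocyte markers (1.62 to 8.64 and 2.3 to 5.72 FPKM), oviduct markers (8.5 to 27.7 and 5.44 to 54.0 FPKM) and ovary markers (18.1 to 22.0 and 20.1 to 30.2 FPKM, with 2 of 3 tested higher). In bulk tissue, fewer cells of a type and less RNA per cell cannot be told apart, and the part of these markers in the results that follow was not tested.

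Of the 60 genes, 44 averaged 0.5 FPKM or more across the 8 libraries and were tested within a fit of 14323 genes on log2(FPKM + 0.5). Lgr6 reached that mean only through its Nr2f2 d/d libraries, the group in which it is high, so its call is a description. With a filter at 1 FPKM, which Lgr6 does not pass, 4 of 42 members and 317 of 13212 genes had a limma adjusted p under 0.05. Wnt5b, Rspo1 and Lgr6 rose and Fzd1 and Dkk2 fell in Nr2f2 d/d at a limma adjusted p under 0.05, which is 5 of 44, beside 2.62% of all genes tested. In each direction these were 3 higher and 2 lower members, beside 1.09% and 1.53% of all genes. By the call rule named in the methods, a fold change of 1.4 or more with an unadjusted p under 0.05, 4 members were higher (adding Wnt5a) and 7 were lower (adding Wnt6, Fzd4, Dkk3, Lef1 and Tcf7), beside 4.7% and 4.1% of all genes and 8.8% in either direction. An unadjusted p under 0.05 alone was reached by 16 members, 5 of them higher and 11 lower, beside 21.2% of all genes (8.66% higher and 12.5% lower). The FPKM of 4 members in Nr2f2 d/d lay wholly above those in Nr2f2 f/f and those of 8 wholly below, beside 5.49% and 9.91% of all genes and 15.4% in either direction. The split of all genes depended on the scaling: with median-ratio scaling 10.9% were higher and 9.75% lower at an unadjusted p under 0.05 (5 and 10 members), and 7.47% and 7.59% did not overlap (5 and 8 members). The median log2 fold change was -0.08 over the 44 members and -0.02 over all genes tested, but without Nr2f2 f/f replicate 2 it was -0.012 over the members and -0.029 over all genes. With all 8 libraries, 38.6% of members and 46.7% of all genes were above 0.

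**Figure D1:**
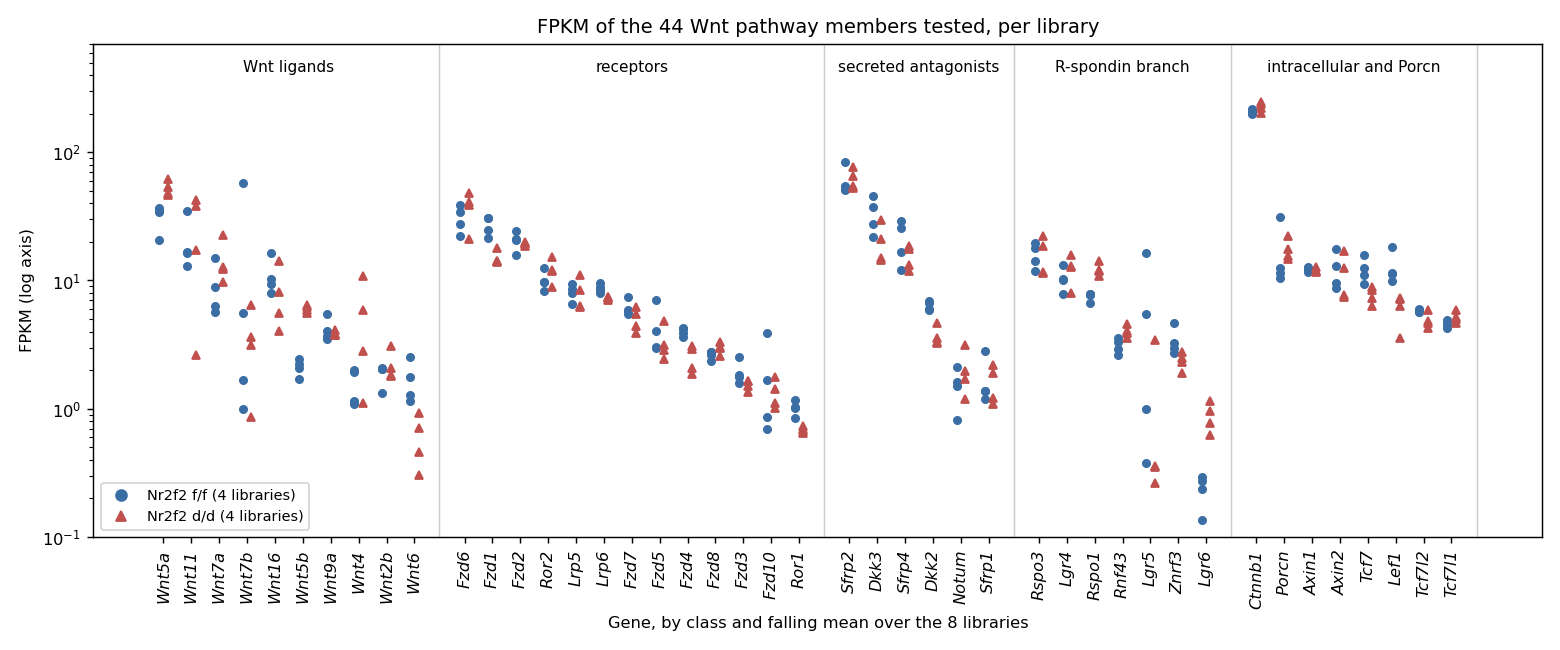
FPKM on a log axis of the 44 members tested, grouped by class and ordered by mean, with 4 Nr2f2 f/f libraries (circles) and 4 Nr2f2 d/d libraries (triangles) per gene. Ctnnb1, at 200 to 245 FPKM, was the most abundant, and Wnt5b, Wnt5a, Rspo1 and Lgr6 show triangles wholly above circles.

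Wnt5b, a ligand known mainly for beta-catenin-independent signalling, is the member with the lowest p, and its promoter windows are therefore shown. The gene lies on the minus strand of mouse chromosome 6 (mm10, positions 119432531 to 119544347), and 3 RefSeq start sites are given for it in GRCm38.p6. The FPKM are summed over the gene and do not say which start was used. The 250 bases before each start are printed 5′ to 3′ on the minus strand, with capitals marking GGGTCA, 1 spelling of the short core motif of NR2F2, and CTTTGAT, 1 spelling of the TCF/LEF site.
Wnt5b, chr6:119449387-119449636: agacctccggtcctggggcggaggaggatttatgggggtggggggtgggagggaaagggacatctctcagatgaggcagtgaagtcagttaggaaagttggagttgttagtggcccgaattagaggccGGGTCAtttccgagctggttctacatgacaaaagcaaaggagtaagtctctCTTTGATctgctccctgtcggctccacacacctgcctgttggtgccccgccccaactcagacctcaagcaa
Wnt5b, chr6:119467212-119467461: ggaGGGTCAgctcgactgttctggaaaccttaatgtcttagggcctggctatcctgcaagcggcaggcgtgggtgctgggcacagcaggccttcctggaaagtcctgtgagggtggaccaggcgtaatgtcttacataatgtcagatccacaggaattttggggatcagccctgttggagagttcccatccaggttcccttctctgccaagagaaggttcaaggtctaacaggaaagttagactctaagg
Wnt5b, chr6:119544348-119544597: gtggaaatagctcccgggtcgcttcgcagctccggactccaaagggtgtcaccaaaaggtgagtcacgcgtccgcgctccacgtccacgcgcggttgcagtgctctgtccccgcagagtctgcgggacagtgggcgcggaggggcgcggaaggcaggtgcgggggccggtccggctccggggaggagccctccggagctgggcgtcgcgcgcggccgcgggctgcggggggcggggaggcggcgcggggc
Counted backwards from -1 just before the start, GGGTCA began at -122 and CTTTGAT at -71 in the first window, and GGGTCA began at -247 in the second. The third window, of 75.2% G and C against 55.6% and 53.2% in the others, held no match. With both strands searched for AGGTCA or GGGTCA in the 250 bases before the starts, 11 of the 39 members with a RefSeq promoter (28.2%) and 26.4% of 27025 genes had a match. For CTTTGAT or CTTTGAA these shares were 7.69% (3 of 39) and 8.63%. The windows of Rspo1, Lgr6, Fzd1 and Dkk2 held neither. These motifs are short, and a match is a description of the letters and not of binding.

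Among the ligands, Wnt5b and Wnt5a were higher in every Nr2f2 d/d library than in any Nr2f2 f/f library, and Wnt6 was lower. Wnt5b mRNA measured 2.09, 2.44, 2.22 and 1.70 FPKM in Nr2f2 f/f and 6.21, 5.85, 6.38 and 5.60 FPKM in Nr2f2 d/d. The groups were far apart and each was tight, with means of 2.11 ± 0.310 and 6.01 ± 0.354 FPKM (SD, n = 4 each), a ratio of 2.85. The log2 fold change was 1.33 (SE 0.104, 95% interval 1.09 to 1.56, limma adjusted p = 0.00514), and the two-sided exact permutation p was 0.0286, the smallest that 4 against 4 allows. Wnt5b was still called with any 1 library left out, at log2 fold changes of 1.25 to 1.38 and limma adjusted p of 0.00627 to 0.0243.

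Wnt5a, a partner of Ror2 in beta-catenin-independent signalling, had the highest mean of the ligands over the 8 libraries, though not the highest value in each. It measured 34.0, 20.6, 36.5 and 35.2 FPKM in Nr2f2 f/f and 53.6, 48.5, 61.5 and 46.2 FPKM in Nr2f2 d/d. The groups did not overlap, and Nr2f2 f/f replicate 2 stood below the other controls. Its log2 fold change was 0.75 (SE 0.187, 95% interval 0.32 to 1.18), with a limma adjusted p of 0.0744. Without Nr2f2 f/f replicate 2 the log2 fold change was 0.56 and the limma adjusted p was 0.0435. With each of the other libraries left out, the limma adjusted p of Wnt5a was 0.0941 to 0.165. Wnt6 measured 2.53, 1.15, 1.27 and 1.77 FPKM in Nr2f2 f/f and 0.705, 0.305, 0.923 and 0.458 FPKM in Nr2f2 d/d. All Nr2f2 d/d values were lower, with a log2 fold change of -0.98 (SE 0.243, 95% interval -1.54 to -0.42) and a limma adjusted p of 0.0736.

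**Figure D2:**
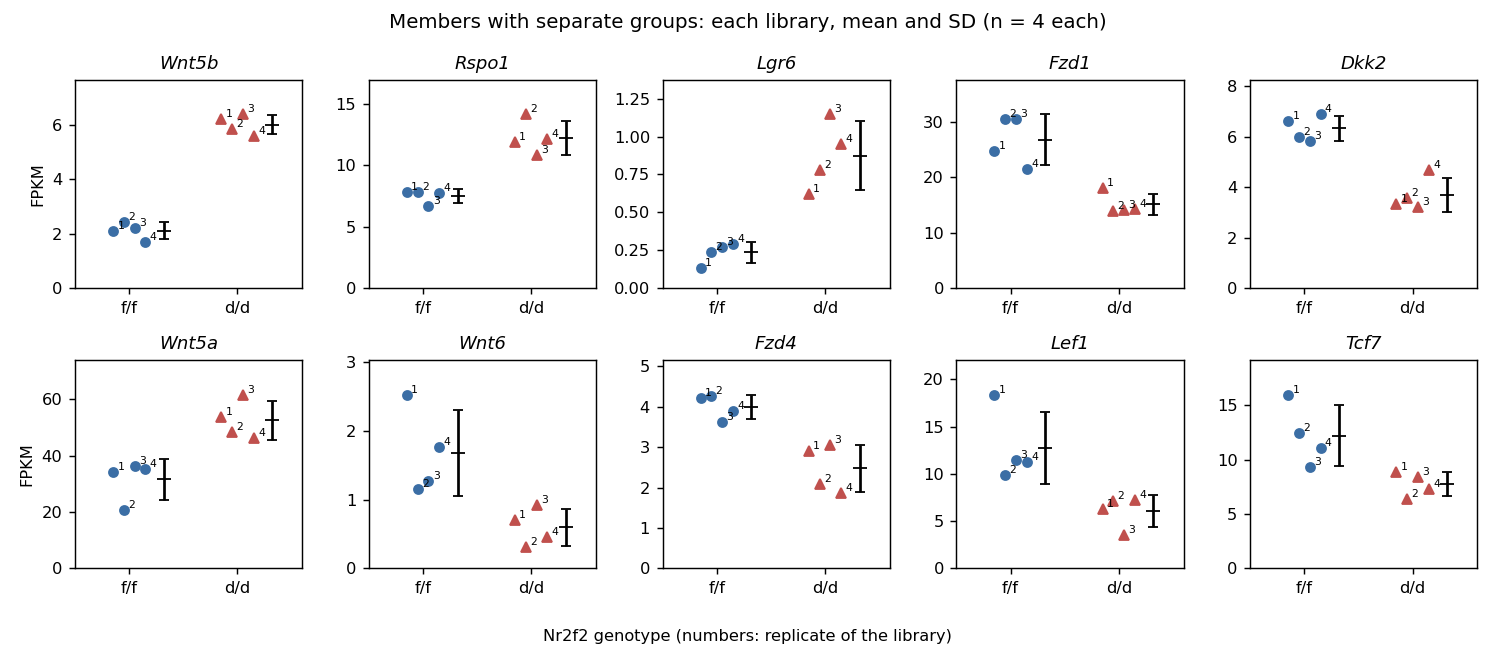
FPKM in each library of 10 members whose groups do not overlap, with replicate numbers, and the mean and SD of each group (n = 4 each) as black bars. Wnt5b, Rspo1, Lgr6 and Wnt5a were higher in Nr2f2 d/d and the other 6 were lower.

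The other ligands tested overlapped between the genotypes. Wnt4, a ligand of the decidualizing stroma and the uterine epithelium, measured 1.94, 1.09, 2.01 and 1.16 FPKM in Nr2f2 f/f and 5.84, 2.84, 10.7 and 1.11 FPKM in Nr2f2 d/d. In Nr2f2 d/d, 3 values lay above all controls and that of replicate 4 lay among them. The log2 fold change of Wnt4 was 1.14 with a 95% interval of -0.10 to 2.39 (limma adjusted p = 0.273, exact permutation p = 0.143). Wnt7a, an epithelial ligand needed for uterine patterning, measured 15.1, 8.96, 5.66 and 6.31 FPKM in Nr2f2 f/f and 9.68, 12.7, 22.7 and 12.3 FPKM in Nr2f2 d/d, which overlapped. Its log2 fold change was 0.67 (95% interval -0.11 to 1.46, limma adjusted p = 0.3).

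Wnt11, the second most abundant ligand by its mean over the 8 libraries though not in each of them, measured 35.0, 12.9, 16.5 and 16.8 FPKM in Nr2f2 f/f and 17.3, 38.4, 2.63 and 42.4 FPKM in Nr2f2 d/d. The Nr2f2 d/d values spanned those of the controls on both sides, and the 95% interval of the log2 fold change of -0.15 ran from -1.97 to 1.67. Wnt7b measured 5.61, 57.2, 1.67 and 1.00 FPKM in Nr2f2 f/f and 3.61, 3.14, 6.48 and 0.860 FPKM in Nr2f2 d/d. The high value belonged to Nr2f2 f/f replicate 2, the library whose gland markers summed to 3297 FPKM, and the log2 fold change of Wnt7b was -0.75 with a 95% interval of -3.27 to 1.77. Wnt16 ranged from 4.01 to 16.5 FPKM over the 8 libraries, Wnt9a from 3.52 to 5.48 FPKM and Wnt2b from 1.325 to 3.09 FPKM, with 95% intervals of -1.38 to 0.31, -0.39 to 0.20 and -0.23 to 0.59 on the log2 scale.

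**Figure D3:**
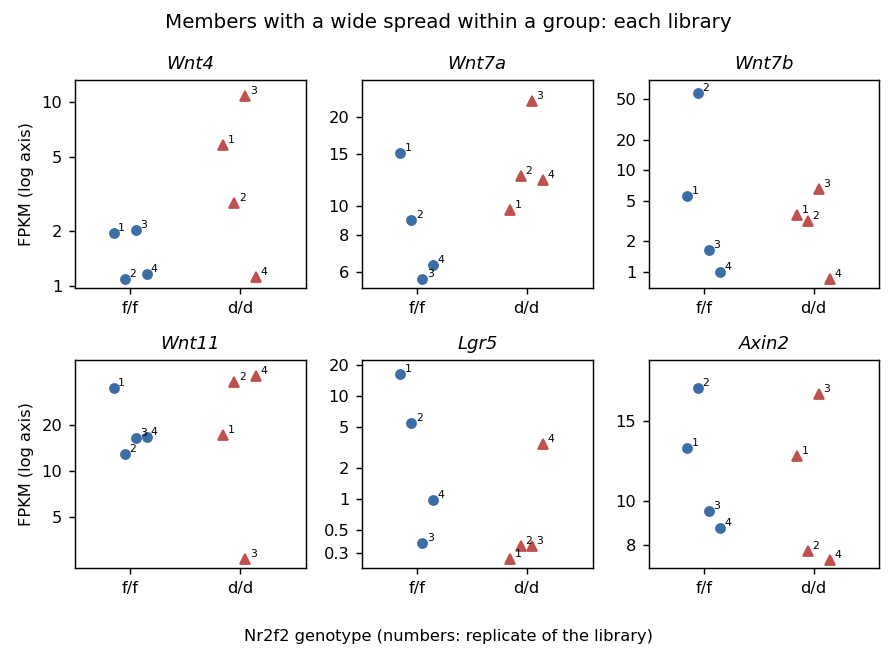
FPKM on log axes in each library of 6 members with a wide spread within a genotype, with replicate numbers. The groups overlap in all 6, and Nr2f2 f/f replicate 2 holds the highest Wnt7b (57.2 FPKM) and Nr2f2 d/d replicate 3 the highest Wnt4 (10.7 FPKM) and lowest Wnt11 (2.63 FPKM).

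Over the 19 ligand genes, the summed level was 100 ± 23.3 FPKM in Nr2f2 f/f and 122 ± 8.72 FPKM in Nr2f2 d/d (SD, n = 4 each). Over all libraries Wnt5a made up 37.8% of this sum, Wnt11 20.4% and Wnt7a 10.5%. Wnt5b made up 1.86% to 2.74% in the Nr2f2 f/f libraries and 4.66% to 5.59% in the Nr2f2 d/d libraries, and Wnt6 0.905% to 2.25% and 0.244% to 0.700%. Wnt7b made up 44.9% in Nr2f2 f/f replicate 2 and at most 5.01% in any other library.

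**Figure D4:**
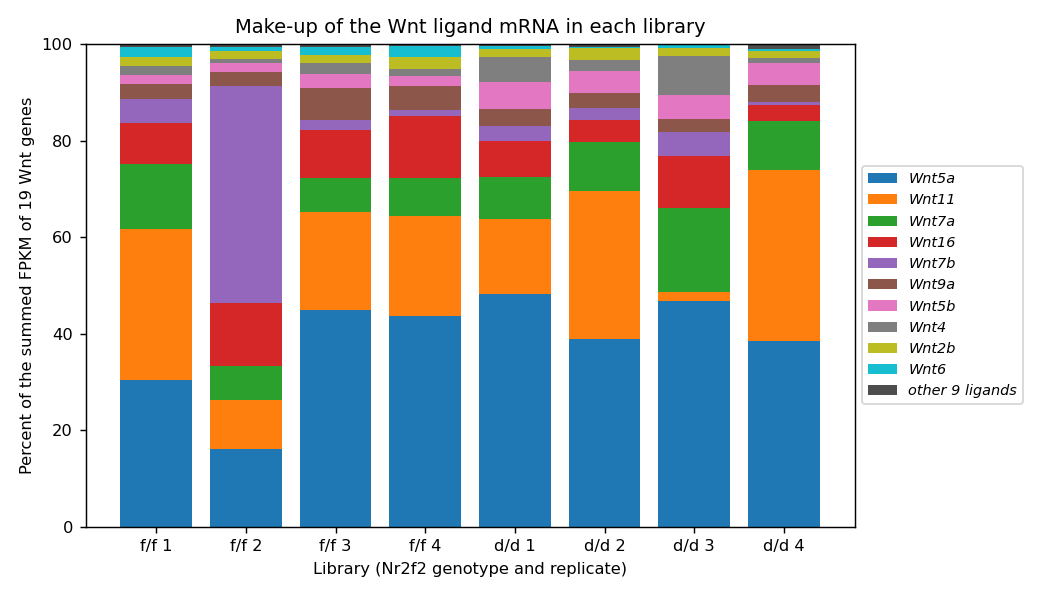
Percent of the summed FPKM of the 19 Wnt genes held by each ligand, 1 bar per library. Wnt5a held 16.2% to 48.3%, Wnt11 1.99% to 35.3%, and Wnt7b held 44.9% in Nr2f2 f/f replicate 2.

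The remaining 9 ligands, Wnt1, Wnt2, Wnt3, Wnt3a, Wnt8a, Wnt8b, Wnt9b, Wnt10a and Wnt10b, stayed under a mean of 0.5 FPKM. Wnt3a was listed at 0 in all 8 libraries, where 3 fragments would be worth about 0.0177 FPKM in the shallowest library, a limit for counting error only. Wnt10a measured 0.266, 0.091, 0.092 and 0.099 FPKM in Nr2f2 f/f and 0.041, 0.057, 0.039 and 0 FPKM in Nr2f2 d/d. These groups did not overlap (exact permutation p = 0.0286), but in a fit with no filter the limma adjusted p was 0.199, and Wnt10a was singled out after its values were seen. Wnt2 and Wnt10b reached 0.599 and 0.603 FPKM in Nr2f2 d/d replicate 4, their highest library, and Wnt1, Wnt3, Wnt8a, Wnt8b and Wnt9b stayed at or under 0.099 FPKM.

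Among the receptors, 3 of 13 tested had a log2 fold change above 0 and 10 below (23.1% above, against 46.7% of all genes), with a median of -0.23, against -0.02. Fzd1, a Frizzled receptor encoded on chromosome 5 (mm10, positions 4753839 to 4758035, minus strand, a single exon), measured 24.6, 30.5, 30.6 and 21.4 FPKM in Nr2f2 f/f and 18.0, 13.9, 14.1 and 14.2 FPKM in Nr2f2 d/d. It fell from 26.8 ± 4.53 to 15.1 ± 1.96 FPKM (SD, n = 4 each), for a log2 fold change of -0.80 (SE 0.138, 95% interval -1.12 to -0.49, limma adjusted p = 0.0283). With 1 library left out, Fzd1 was called only without Nr2f2 f/f replicate 2 or 4 (adjusted p = 0.0479 and 0.0361), and it had limma adjusted p of 0.0551 to 0.0986 without any other library, at log2 fold changes of -0.89 to -0.73.

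Fzd4, the receptor for norrin in blood vessels as well as for Wnt ligands, measured 4.21, 4.27, 3.63 and 3.89 FPKM in Nr2f2 f/f and 2.91, 2.08, 3.06 and 1.88 FPKM in Nr2f2 d/d. All Nr2f2 d/d values were lower, and the log2 fold change was -0.61 (SE 0.145, 95% interval -0.95 to -0.28, limma adjusted p = 0.0668). The summed endothelial markers, at 352 to 478 and 223 to 278 FPKM, moved in the same direction, and their part in the Fzd4 values was not tested. The co-receptor Lrp6 measured 8.84, 9.59, 7.96 and 8.496 FPKM in Nr2f2 f/f and 7.28, 7.49, 7.09 and 7.46 FPKM in Nr2f2 d/d. This difference was small but without overlap, with a log2 fold change of -0.23 (SE 0.0725, 95% interval -0.40 to -0.07, limma adjusted p = 0.126). Ror1, a receptor for Wnt5a, measured 0.853, 1.16, 1.03 and 1.01 FPKM in Nr2f2 f/f and 0.733, 0.672, 0.641 and 0.700 FPKM in Nr2f2 d/d. Its groups did not overlap either, with a log2 fold change of -0.35 (SE 0.101, 95% interval -0.58 to -0.12, limma adjusted p = 0.106).

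Fzd6, a Frizzled linked to planar cell polarity, had the highest mean of the receptors over the 8 libraries and made up 28.0% of the summed receptor FPKM. It measured 27.5, 22.2, 34.4 and 38.7 FPKM in Nr2f2 f/f and 39.2, 40.8, 21.1 and 48.5 FPKM in Nr2f2 d/d. These values overlapped, with a log2 fold change of 0.25 (95% interval -0.38 to 0.87). Ror2, the other Ror receptor, ranged from 8.21 to 15.3 FPKM (log2 fold change 0.24, 95% interval -0.16 to 0.64), and Lrp5, the other co-receptor, from 6.16 to 11.01 FPKM (-0.05, -0.49 to 0.38). Fzd2 ranged from 15.8 to 24.5 FPKM, Fzd7 from 3.87 to 7.37 FPKM, Fzd5 from 2.45 to 7.04 FPKM, Fzd8 from 2.37 to 3.32 FPKM, Fzd3 from 1.34 to 2.54 FPKM and Fzd10 from 0.691 to 3.88 FPKM, and none had an unadjusted p under 0.05. Fzd9 stayed at or under 0.131 FPKM and was not tested.

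**Figure D5:**
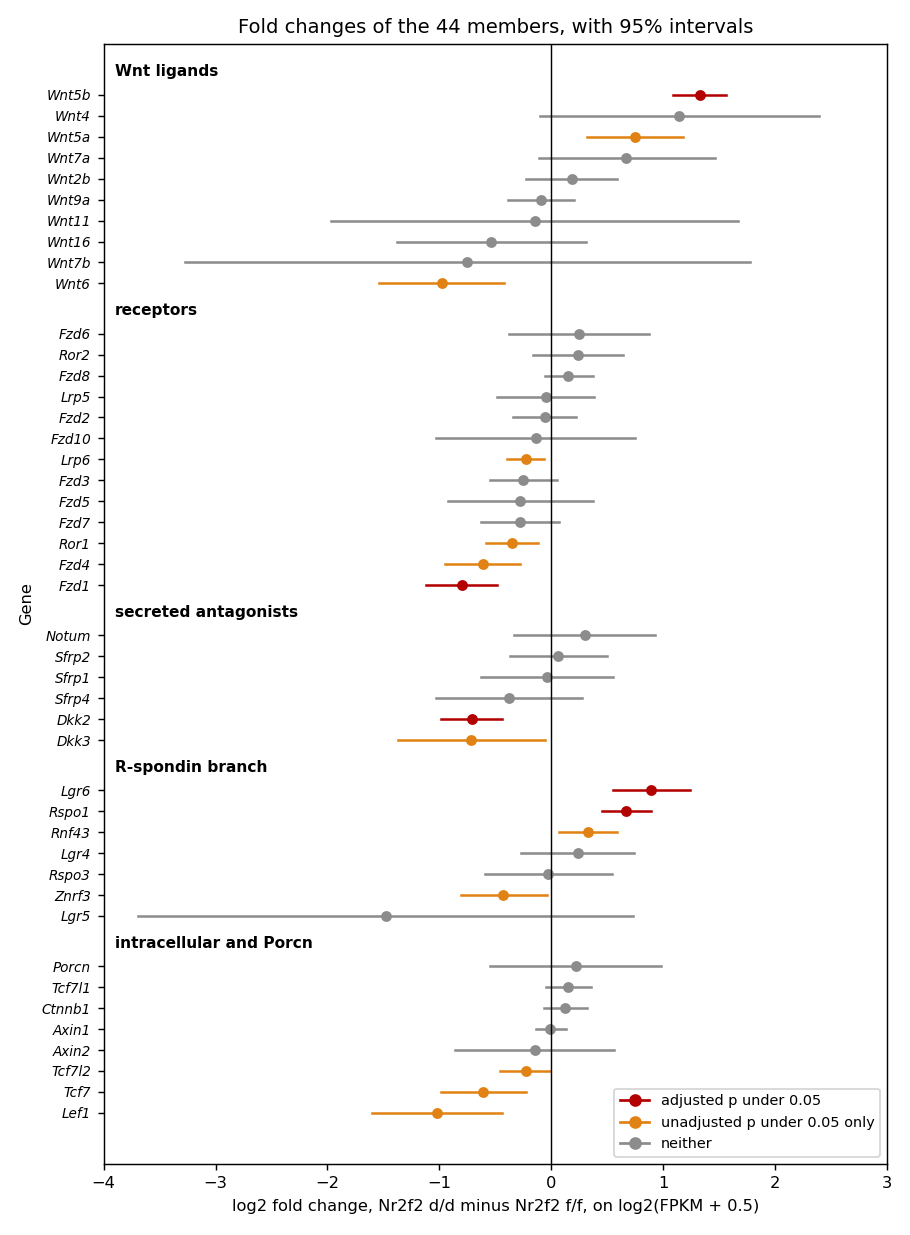
Log2 fold changes (Nr2f2 d/d minus Nr2f2 f/f, on log2(FPKM + 0.5)) with 95% intervals from limma for the 44 members tested, by class. The 5 with an adjusted p under 0.05 are Wnt5b, Lgr6, Rspo1, Dkk2 and Fzd1, and the widest intervals belong to Wnt7b, Lgr5 and Wnt11.

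Among the secreted antagonists, Dkk2, which binds Lrp5 and Lrp6, fell. It lies on chromosome 3 (mm10, positions 132085292 to 132180304, plus strand) and measured 6.63, 5.995, 5.84 and 6.88 FPKM in Nr2f2 f/f and 3.31, 3.57, 3.23 and 4.68 FPKM in Nr2f2 d/d. The groups were apart, at 6.34 ± 0.497 and 3.70 ± 0.670 FPKM (SD, n = 4 each), with a log2 fold change of -0.71 (SE 0.119, 95% interval -0.99 to -0.44, limma adjusted p = 0.0262). With 1 library left out, Dkk2 was called only without Nr2f2 f/f replicate 2 or Nr2f2 d/d replicate 4 (adjusted p = 0.0409 and 0.0142), and it had limma adjusted p of 0.0501 to 0.0895 without any other library. Dkk3, a divergent family member whose part in Wnt signalling is less clear, measured 37.2, 45.2, 27.7 and 21.9 FPKM in Nr2f2 f/f and 14.4, 20.9, 15.1 and 29.7 FPKM in Nr2f2 d/d. The groups overlapped through Nr2f2 d/d replicate 4, and the log2 fold change was -0.72 (SE 0.285, 95% interval -1.37 to -0.06, limma adjusted p = 0.205).

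Sfrp2, which binds Wnt ligands outside the cell, made up 53.5% of the summed antagonist FPKM. It measured 50.6, 51.6, 84.5 and 54.3 FPKM in Nr2f2 f/f and 65.4, 76.5, 52.4 and 54.5 FPKM in Nr2f2 d/d, with a log2 fold change of 0.06 (95% interval -0.37 to 0.50). The groups overlapped, and the highest value was a control. Its relatives Sfrp4 and Sfrp1 ranged from 11.8 to 29.0 FPKM and from 1.08 to 2.82 FPKM, with 95% intervals of -1.03 to 0.27 and -0.63 to 0.55 on the log2 scale. Notum, an enzyme that removes the lipid of Wnt proteins, ranged from 0.812 to 3.12 FPKM (95% interval -0.33 to 0.93), and 38.1% of its exon bases overlap genes on the other strand, which the library kit does not separate.

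Dkk1, Dkk4, Sfrp5 and Wif1 had means under 0.5 FPKM and were not tested. Wif1, a secreted protein that binds Wnt ligands, measured 0.014, 0.022, 0.006 and 0 FPKM in Nr2f2 f/f and 0.130, 0.063, 0.443 and 0.069 FPKM in Nr2f2 d/d. Every Nr2f2 d/d value was higher (exact permutation p = 0.0286), but the values correspond to about 6.56 fragments over the 4 controls and 145 over the 4 Nr2f2 d/d libraries. In a fit with no filter the limma adjusted p of Wif1 was 0.259, and the gene was singled out after its values were seen.

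In the R-spondin branch, Rspo1 rose. Rspo1, an R-spondin that amplifies Wnt signalling, lies on chromosome 4 (mm10, positions 124986430 to 125009099, plus strand) and measured 7.85, 7.80, 6.67 and 7.71 FPKM in Nr2f2 f/f and 11.9, 14.1, 10.8 and 12.1 FPKM in Nr2f2 d/d. The groups were apart, at 7.51 ± 0.564 and 12.2 ± 1.39 FPKM (SD, n = 4 each), with a log2 fold change of 0.67 (SE 0.0958, 95% interval 0.45 to 0.89, limma adjusted p = 0.0189). Without Nr2f2 f/f replicates 1 or 4, or Nr2f2 d/d replicates 1 or 2, the limma adjusted p of Rspo1 was 0.0547, 0.0519, 0.0609 and 0.0634, and it stayed called without each of the other 4 libraries.

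Lgr6, an R-spondin receptor that passed the filter only through Nr2f2 d/d, lies on chromosome 1 (mm10, positions 134983301 to 135105276, minus strand) and measured 0.135, 0.238, 0.273 and 0.292 FPKM in Nr2f2 f/f and 0.621, 0.778, 1.15 and 0.954 FPKM in Nr2f2 d/d. All Nr2f2 d/d values were higher, and the means of 0.234 ± 0.0700 and 0.875 ± 0.226 FPKM (SD, n = 4 each) had a ratio of 3.73. On log2(FPKM + 0.5), which understates the change of a gene this low, the log2 fold change was 0.89 (SE 0.150, 95% interval 0.55 to 1.24, limma adjusted p = 0.0265), and it was 1.54 with 0.1 added and 0.60 with 1 added. With 1 library left out, Lgr6 was called only without Nr2f2 f/f replicate 2 or Nr2f2 d/d replicate 3 (limma adjusted p = 0.0435 and 0.0483). Without each of the other libraries its limma adjusted p was 0.0533 to 0.0843. The filter of these fits was set on all 8 libraries. Nr2f2 d/d replicate 3, the highest in Lgr6, therefore still counted towards the filter when left out, and these calls too are a description.

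Lgr5, the R-spondin receptor known as a marker of epithelial stem cells, measured 16.5, 5.44, 0.376 and 0.990 FPKM in Nr2f2 f/f and 0.261, 0.354, 0.350 and 3.405 FPKM in Nr2f2 d/d. Both groups held libraries under 1 FPKM and the controls spread the widest, with a log2 fold change of -1.48 and a 95% interval of -3.69 to 0.73 (limma adjusted p = 0.406). The 2 controls with the highest Lgr5, replicates 1 and 2, also had the highest gland marker sums (617 and 3297 FPKM), and the part of glands in Lgr5 was not tested. Rspo3, the gene of this branch with the highest mean over the 8 libraries, at 33.4% of its summed FPKM, measured 14.2, 17.9, 11.8 and 19.7 FPKM in Nr2f2 f/f and 11.7, 18.6, 11.5 and 22.1 FPKM in Nr2f2 d/d (log2 fold change -0.03, 95% interval -0.59 to 0.54). Lgr4, the R-spondin receptor with the highest mean over the 8 libraries, measured 13.3, 7.80, 10.2 and 10.02 FPKM in Nr2f2 f/f and 13.1, 12.8, 7.99 and 15.7 FPKM in Nr2f2 d/d (0.24, 95% interval -0.27 to 0.74). Neither separated the genotypes.

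The ligases that R-spondins remove differed from each other in direction. Rnf43 measured 2.61, 3.31, 3.57 and 2.92 FPKM in Nr2f2 f/f and 4.62, 3.92, 3.55 and 4.03 FPKM in Nr2f2 d/d, with a log2 fold change of 0.33 (SE 0.113, 95% interval 0.07 to 0.59, limma adjusted p = 0.153). Znrf3 measured 3.24, 4.70, 2.95 and 2.71 FPKM in Nr2f2 f/f and 2.77, 2.304, 2.49 and 1.91 FPKM in Nr2f2 d/d, with a log2 fold change of -0.43 (SE 0.167, 95% interval -0.81 to -0.04, limma adjusted p = 0.199). In both genes 1 Nr2f2 d/d value reached into the range of the controls. Rspo2 and Rspo4 stayed at or under 0.068 FPKM and were not tested.

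Inside the cell, 0 of 8 genes passed the adjusted threshold in limma and 3 were lower at an unadjusted p under 0.05, beside 2.62% and 12.5% of all genes. Of these, Lef1 and Tcf7 were lower in every Nr2f2 d/d library. Lef1, a DNA-binding partner of beta-catenin, measured 18.4, 9.92, 11.5 and 11.3 FPKM in Nr2f2 f/f and 6.32, 7.11, 3.58 and 7.25 FPKM in Nr2f2 d/d. Its log2 fold change was -1.02 (SE 0.252, 95% interval -1.60 to -0.44, limma adjusted p = 0.0732), and 13.7% of its exon bases overlap a gene on the other strand. Tcf7, a second such partner also used in T cells, measured 15.9, 12.5, 9.36 and 11.02 FPKM in Nr2f2 f/f and 8.83, 6.38, 8.40 and 7.31 FPKM in Nr2f2 d/d. Its log2 fold change was -0.61 (SE 0.166, 95% interval -0.99 to -0.23, limma adjusted p = 0.0926), while the T and NK cell markers summed to 35.7 to 55.8 FPKM in Nr2f2 f/f and 44.9 to 242 FPKM in Nr2f2 d/d, and endothelial markers were lower. The part of either cell type in Lef1 or Tcf7 was not tested. Tcf7l2 measured 5.66, 5.92, 5.71 and 5.96 FPKM in Nr2f2 f/f and 4.80, 4.68, 5.91 and 4.23 FPKM in Nr2f2 d/d, with overlap through 1 library (log2 fold change -0.23, SE 0.0990, 95% interval -0.46 to -0.01, limma adjusted p = 0.227). Tcf7l1, known mostly as a repressor, ranged from 4.28 to 5.91 FPKM (log2 fold change 0.15, 95% interval -0.05 to 0.35).

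Ctnnb1, which encodes beta-catenin, made up 75.6% of the summed FPKM of this class. It measured 211, 219, 200 and 202 FPKM in Nr2f2 f/f and 239, 222, 245 and 203 FPKM in Nr2f2 d/d (log2 fold change 0.12, 95% interval -0.07 to 0.32). Axin2, a scaffold of the beta-catenin destruction complex that beta-catenin itself induces, measured 13.1, 17.7, 9.49 and 8.74 FPKM in Nr2f2 f/f and 12.6, 7.75, 17.1 and 7.43 FPKM in Nr2f2 d/d. High and low libraries occurred in both genotypes, and the log2 fold change of Axin2 was -0.15 (95% interval -0.86 to 0.56, limma adjusted p = 0.817). Axin1, the related scaffold, varied little, from 11.7 to 12.8 FPKM (95% interval -0.14 to 0.13). Porcn, the enzyme that lipid-modifies Wnt proteins, measured 10.4, 31.5, 12.5 and 11.4 FPKM in Nr2f2 f/f and 22.2, 17.5, 15.5 and 14.6 FPKM in Nr2f2 d/d. Nr2f2 f/f replicate 2 was highest, as for Wnt7b, the groups overlapped, and the log2 fold change was 0.22 (95% interval -0.55 to 0.98).

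Other genes of the pathway were read from lists of secretion and destruction complex genes, nuclear cofactors, surface and secreted modulators, and planar polarity genes. Of the 71 tested, 2 rose and 2 fell at a limma adjusted p under 0.05, beside 1.09% and 1.53% of all genes. By the rule of 1.4-fold with an unadjusted p under 0.05, 5 were higher and 4 lower, beside 4.7% and 4.1% of all genes. Camk2b, a kinase subunit gene named outside the rule, is among the 5 and averaged 0.5 FPKM or more only through Nr2f2 d/d. The median log2 fold change of the 71 was -0.07, against -0.02 over all genes. Prickle1, of the planar polarity pathway, fell from 12 ± 0.609 to 7.49 ± 0.488 FPKM (SD, n = 4 each; log2 fold change -0.65, limma adjusted p = 0.00829). Daam2, a formin that acts with Dishevelled, fell from 8.13 ± 0.986 to 4.96 ± 0.249 FPKM (-0.65, adjusted p = 0.0192 from limma). Trabd2b, a membrane protease that inactivates Wnt proteins, rose from 0.988 ± 0.143 to 2.10 ± 0.462 FPKM (0.80, adjusted p = 0.0307 from limma), and Dact3, a Dishevelled-binding antagonist, rose from 10.5 ± 0.908 to 15.9 ± 2.26 FPKM (0.57, adjusted p = 0.0445 from limma). Of 14 nuclear cofactors, 0 passed the adjusted threshold in limma, 2 were higher and 4 lower at an unadjusted p under 0.05 (8.66% and 12.5% of all genes), and Tle4 and Tle1, corepressors of TCF/LEF proteins, had the smallest p, with log2 fold changes of -0.46 and -0.45 (limma adjusted p = 0.0620 and 0.0666).

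Genes known to respond to beta-catenin were read from a list that also holds members such as Axin2, Lef1 and Lgr5. Of 24 tested, 12 had a log2 fold change above 0 and 12 below (50% above, against 46.7% of all genes), with a median of 0.03, against -0.02. At an unadjusted p under 0.05, 3 were higher and 6 lower (8.66% and 12.5% of all genes), and with a fold change of 1.4 or more as well, 2 were higher and 4 lower (4.7% and 4.1%). The adjusted threshold was passed by 1, beside 2.62% of all genes. This was Myc, a growth-promoting transcription factor with many other inputs, which fell from 55.8 ± 7.67 to 29.0 ± 2.62 FPKM (SD, n = 4 each; log2 fold change -0.93, limma adjusted p = 0.00887). Of 15 uterine regulators linked to Nr2f2 or Wnt4, Nr2f2 and Hand2 fell at that threshold and 0 rose in limma, beside 1.53% and 1.09% of all genes. At an unadjusted p under 0.05, 2 were higher and 4 lower, the deleted gene included, beside 8.66% and 12.5%. Named outside the rule, the 2 higher were Bmp2 and Esr1 (log2 fold changes 0.58 and 0.31, limma adjusted p = 0.165 and 0.151). Fst and Ptch1 were lower besides Nr2f2 and Hand2 (-0.92 and -1.20, limma adjusted p = 0.0783 and 0.0792). Hand2, a stromal transcription factor induced by progesterone, went from 50.9 ± 4.94 to 31.2 ± 5.36 FPKM (SD, n = 4 each; log2 fold change -0.71, limma adjusted p = 0.0388).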

How the data were processed

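RNA from whole uterus was measured in 8 libraries, 4 Nr2f2 f/f and 4 Nr2f2 d/d, grouped by their labels and matched to the columns by name. The titles number the replicates 1 to 4, as here. The descriptions skip numbers. The authors removed adaptors with cutadapt 1.12, aligned reads to mm10 with STAR 2.5.2b, counted fragments per gene with featureCounts 1.5.0-p1 and deposited FPKM. Cufflinks 2.0.2 is also listed in the submitters' processing notes. Annotation and strand setting are not given in the sources used here. The library kit does not mark strand, so genes that overlap on opposite strands are uncertain. Besides Notum and Lef1, the members with the largest such overlap of exon bases were Fzd5 (17.8%), Sfrp2 (16.1%), Ctnnb1 (14.6%) and Rspo3 (13.1%). FPKM are relative to each library's total. The labels name no batch.

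FPKM are not counts, so limma 3.58.1 in R 4.3.3 replaced the study's count test (two-sided; lmFit on log2(FPKM + 0.5), then eBayes with a trend on the mean). The 14323 genes that averaged 0.5 FPKM or more entered it, and p-values were adjusted over all of these by Benjamini-Hochberg. Intervals are 95%. Exact permutation tests compared mean FPKM over all 70 arrangements of the libraries. Totals were recovered as the value at which 87.0% to 91.2% of the FPKM of short small-RNA genes were whole fragments within 0.1, against medians of 13.1% to 16.8% at other totals. Fragment numbers therefore are estimates and rest on GENCODE vM21 exon lengths, which also gave coordinates. Promoters came from RefSeq (GRCm38.p6), for 39 of the 60 members. Tables were made with Python 3.11.15.

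Named were every member with an unadjusted p under 0.05, the 2 of each class with the highest mean FPKM, and from each list of other genes those with an adjusted p under 0.05 or, with none, the 2 with the smallest p. Members with a wide spread are described as well, by their values. The members and lists were chosen with earlier results of these data known. Alternatives were 0.1 or 1 added before the log2, eBayes robust or without its trend, quantile or median-ratio normalization, filters at no minimum or an average of 1 FPKM, a replicate block, and each library left out. With a library left out, the filter stayed the one set on all 8 libraries.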

Additional observations from a re-analysis of the deposited data

Results flagged for a closer look

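In 10 of 90 groups of 4 libraries (Nr2f2 and the 44 members tested, in each genotype), the gap of 1 library to its nearest neighbour was a larger part of the group's range than Dixon's 95% critical value allows. For independent, normally distributed values the critical value is passed in about 1 of 20 groups. The groups here come from the same 8 libraries, and whether their FPKM are normal was not tested. The number of groups flagged can therefore not be set against that share. In Nr2f2 f/f, replicate 2 stood apart for Wnt7b (57.2 FPKM), Porcn (31.5 FPKM) and Wnt5a (20.6 FPKM), the first pair high and the last low. Replicate 3 stood apart for Sfrp2 (84.5 FPKM, high), Rspo1 (6.67 FPKM, low) and Wnt2b (1.32 FPKM, low). Replicate 1 stood apart for Sfrp1 (2.82 FPKM, high). In Nr2f2 d/d, replicate 1 stood apart for Fzd1 (18.0 FPKM, high), replicate 3 for Nr2f2 itself (6.90 FPKM, low) and replicate 4 for Lgr5 (3.40 FPKM, high). Nr2f2 f/f replicate 2 is also the library with the highest gland marker sum, 3297 FPKM, and the part of this in its values was not tested.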

How the results depend on the processing

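Other pseudocounts, scalings and variance settings, and the lack of a filter, left the number of members past the adjusted threshold at 5. With a filter of 1 FPKM, which Lgr6 does not pass, it was 4 of 42, beside 317 of 13212 genes. Over all genes these settings gave 317 to 422 calls, against 375. With 1 library left out the number of members ranged from 1 to 6, with 1 to 4 higher and 0 to 2 lower. Over all genes it then ranged from 42 to 347, against 375. For members it was 6 without Nr2f2 f/f replicate 2, 1 without Nr2f2 f/f replicate 1 or Nr2f2 d/d replicates 1 or 2, 2 without Nr2f2 f/f replicates 3 or 4, and 3 without Nr2f2 d/d replicates 3 or 4. Wnt5b was called in every one of these fits. Members wholly higher in Nr2f2 d/d numbered 4 to 7 and wholly lower 8 to 10; the highest, 7 and 10, came without Nr2f2 d/d replicate 4, where 9.48% and 12.7% of all genes were apart. The median log2 fold change ranged from -0.145 (all genes -0.013), without Nr2f2 f/f replicate 4, to -0.012 (all genes -0.029), without Nr2f2 f/f replicate 2. With a replicate block 0 members passed the adjusted threshold (0 higher and 0 lower; 14 at an unadjusted p under 0.05, beside 17.3% of all genes), and 1 gene of all those tested did. Nr2f2 and Wnt5b had limma adjusted p of 0.0714 and 0.0556, while 5 members were higher and 6 lower at 1.4-fold with an unadjusted p under 0.05, beside 4.69% and 3.99% of all genes. By the numbers of the titles, same-numbered libraries did not deviate together (correlations of -0.204, -0.172, 0.0452 and -0.0403). The descriptions number the libraries differently, and that numbering was used neither here nor in the block. Whether libraries were paired is therefore not decided. Of 287 single-gene alternatives for 17 genes, 258 kept their side of the adjusted threshold, 28 lost a call, 1 gained one (Wnt5a without Nr2f2 f/f replicate 2) and 0 turned direction. The 17 genes are Nr2f2 and the 16 members with an unadjusted p under 0.05 in the main limma fit. Most of them held no call to lose, and that choice favours a kept direction, so these numbers are not a rate of stability. In the shallowest library 3 fragments were worth about 0.0201 FPKM of Wif1 and 0.0198 FPKM of Wnt10a, so lower values cannot be told from 0.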
